A study of Mus musculus with 10 samples.

Results

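The 8 genes Muc1, Muc4, Muc5ac, Muc6, Tff1, Tff2, Tff3 and Agr2 were taken by symbol from the gene tables of 2 mouse pancreatic tumour models, KrasT and MycT, which share 23924 usable gene symbols. All 8 were found in both tables, and each is given as FPKM, a fragment count divided by transcript length and by the mapped total, in each of the 10 tumour libraries. With all libraries in the fit, no member passed the test for a doxycycline change after adjustment over all genes in either model. Tff2 was higher in both doxycycline MycT tumours than in both untreated ones. In MycT, however, the groups did not overlap for 64.7% of all genes tested. The levels of Tff2, Muc1, Agr2 and Tff3 differed between tumours of the same group by up to several orders of magnitude. Tff2 led in nearly all KrasT tumours, and Tff3 led in the untreated MycT tumours.

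Mucins are large glycoproteins that coat epithelia. Muc5ac and Muc6 are secreted and form the mucus gel of the stomach, Muc5ac from its surface cells and Muc6 from its glands, whereas Muc1 and Muc4 stay anchored in the cell membrane, where they carry long sugar chains and a signalling tail or growth factor-like domains. Trefoil factors are small secreted peptides held in a clover-leaf fold by disulfide bonds. Tff1 is the partner of Muc5ac at the gastric surface, Tff2 is secreted with Muc6 by mucous neck and pyloric gland cells, and Tff3 is the trefoil peptide of intestinal goblet cells. Agr2 is a protein disulfide isomerase of the endoplasmic reticulum that mucus cells need to fold mucins. Gastric-type mucins and trefoil factors are known markers of early pancreatic neoplasia.

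The tumours had been transplanted into the pancreas of athymic nude mice, a strain without a thymus that lacks most T cells. Host age, the alleles behind the names KrasT and MycT, and any promoter or Cre line are not stated in the labels. The groups were 3 KrasT tumours after 14 days of doxycycline, 3 KrasT tumours at day 0, 2 MycT tumours after 14 days of doxycycline and 2 MycT tumours at day 0. Doxycycline was given in the drinking water at 100 ug/ml together with 2.5% sucrose over 2 weeks. The labels do not say whether day 0 mice drank sucrose, so effects of sucrose, of doxycycline and of any transgene it switches cannot be told apart. The title of the series concerns tumour cells that persist when their oncogenic driver is off. Each tumour has an animal number of its own, and p-values measure only the spread between these tumours. The sample titles name no donor, so whether tumours of a group were grafts of the same original tumour cannot be told from them. Whole tumour tissue was sequenced, so fewer cells of a type and less RNA per cell cannot be told apart.

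Several libraries stood apart. The summed FPKM was 513949 to 569272 in doxycycline KrasT libraries and 789672 to 1018968 in untreated KrasT libraries, against 546008 to 557227 in doxycycline MycT and 1126800 to 1517332 in untreated MycT libraries. The depth in reads is unknown, and the steps between low values put the deepest library of a table at 1.57 (KrasT) and 1.61 (MycT) times the shallowest. The ribosomal RNA precursor Rn45s was at 17239 FPKM in KrasT doxycycline replicate 1 and at 20880 FPKM in MycT doxycycline replicate 2, and at 546 to 2231 FPKM in the other libraries. KrasT untreated replicate 1 had the epithelial genes Epcam at 7.22 and Cdh1 at 4.67 FPKM but the keratin Krt18 at 1497 FPKM. One untreated MycT library carries an animal number that matches no label and is called the untreated MycT library without a number.

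The gland mucin Muc6 was the secreted mucin with the highest levels in KrasT tumours. Its level was 13.5, 7.78 and 12.9 FPKM in KrasT doxycycline replicates 1, 2 and 3, against 0.0596, 42.9 and 8.21 FPKM in untreated replicates 1, 2 and 3. The 3 doxycycline values lay close together within the range of the untreated values, of which replicate 1 was nearly devoid of Muc6. In MycT tumours Muc6 was at 0.0893 and 3.61 FPKM in doxycycline replicates 1 and 2, against 0.00841 FPKM in untreated replicate 2 and 0 FPKM in the library without a number. Both doxycycline values were above both untreated values, but only 1 of the 4 libraries reached 1 FPKM, and Muc6 was therefore not tested within MycT. Of the genes tested in MycT, 64.7% had groups without overlap.

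The surface mucin Muc5ac was low in most tumours. It was at 0, 0.427 and 0.155 FPKM in KrasT doxycycline replicates 1, 2 and 3, against 0.0191, 11.5 and 1.83 FPKM in untreated replicates 1, 2 and 3. Untreated replicates 2 and 3 were above every doxycycline library, whereas untreated replicate 1 lay among them. In MycT tumours it was at 2.74 and 0.0130 FPKM in doxycycline replicates 1 and 2, against 0.0726 FPKM in untreated replicate 2 and 0.410 FPKM in the library without a number. The MycT groups overlapped, and 1 of 4 libraries was above 1 FPKM.

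Of the membrane mucins, Muc1 was abundant and Muc4 was near the floor. Muc1 was at 7.80, 167 and 149 FPKM in KrasT doxycycline replicates 1, 2 and 3, against 1.48, 432 and 285 FPKM in untreated replicates 1, 2 and 3. In each KrasT group replicate 1 was far below the other 2, and the groups overlapped. In MycT tumours Muc1 was at 222 and 43.7 FPKM in doxycycline replicates 1 and 2, against 0.956 FPKM in untreated replicate 2 and 76.0 FPKM in the library without a number. The untreated MycT libraries differed 79.5-fold, the doxycycline ones 5.09-fold, and the groups overlapped.

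Muc4 was at 0.0458, 0.489 and 0.124 FPKM in KrasT doxycycline replicates 1, 2 and 3, against 0.00477, 1.27 and 1.21 FPKM in untreated replicates 1, 2 and 3. In MycT tumours it was at 3.07 and 0.457 FPKM in doxycycline replicates 1 and 2, against 0.0302 FPKM in untreated replicate 2 and 0.633 FPKM in the library without a number. As for Muc1, untreated KrasT replicate 1 and untreated MycT replicate 2 had the lowest Muc4 of their models, and both pairs of groups overlapped.

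Promoter windows from RefSeq (build GRCm38.p6, 250 bases before to 50 after the start of the gene, read along its strand) matched 4 of the 8 symbols, Muc1, Muc4, Muc6 and Agr2. They are shown for Muc1 and Muc6, the most abundant membrane and secreted mucin of the KrasT tumours, and for Agr2, whose level varied with that of Muc1 across tumours. Capitals mark exact matches, on either strand, to 4 strings of letters. The TATA box was searched as TATAAA. The GC box was searched as GGGCGG. The GATA motif was searched as AGATAA, and the forkhead motif as TGTTTAC. No base belonged to more than 1 match. The Muc1 window is chr3:89228806-89229105 on the plus strand, the Muc6 window chr7:141655344-141655643 on the minus strand and the Agr2 window chr12:35992675-35992974 on the plus strand.
Muc1: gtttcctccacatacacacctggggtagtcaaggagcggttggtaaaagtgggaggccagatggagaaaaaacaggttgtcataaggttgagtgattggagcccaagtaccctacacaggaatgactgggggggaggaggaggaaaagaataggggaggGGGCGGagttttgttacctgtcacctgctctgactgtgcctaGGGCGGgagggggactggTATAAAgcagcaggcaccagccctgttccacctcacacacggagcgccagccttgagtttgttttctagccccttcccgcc
Muc6: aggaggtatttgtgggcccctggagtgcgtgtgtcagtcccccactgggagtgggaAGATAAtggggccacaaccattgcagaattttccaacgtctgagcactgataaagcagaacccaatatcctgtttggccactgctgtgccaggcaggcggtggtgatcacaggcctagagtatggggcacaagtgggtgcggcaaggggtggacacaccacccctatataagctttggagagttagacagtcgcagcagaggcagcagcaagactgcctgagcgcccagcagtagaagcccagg
Agr2: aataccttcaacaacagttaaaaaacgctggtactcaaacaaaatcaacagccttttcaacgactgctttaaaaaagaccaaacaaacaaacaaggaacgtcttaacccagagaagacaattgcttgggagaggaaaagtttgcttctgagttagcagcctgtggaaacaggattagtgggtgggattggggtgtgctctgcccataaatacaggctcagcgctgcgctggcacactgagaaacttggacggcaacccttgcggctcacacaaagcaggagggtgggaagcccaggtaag
Muc1 held TATAAA 31 bases before its start and GGGCGG 91 and 49 bases before it. Muc6 held AGATAA 194 bases before its start, and Agr2 held none of the 4 letter strings. Other spellings of these motifs were not searched, so a window without a string may still hold a form of the motif. Among all 32851 windows of the table, 13.6% held the TATA box string, 35.7% the GC box, 11.2% the GATA motif and 3.65% the forkhead motif. The matches describe the reference sequence, and no binding was measured in these tumours.

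Of the trefoil factors, Tff2 was the most abundant member in KrasT tumours, Tff3 reached the highest level of any member in 1 MycT tumour, and Tff1 was listed at 0 in all 10 libraries. Of 20 housekeeping genes, 0 were at 0 FPKM in any of the libraries. That check cannot tell whether Tff1 RNA was absent or was not counted. Tff2 was at 380, 2095 and 1590 FPKM in KrasT doxycycline replicates 1, 2 and 3, against 1.84, 2933 and 1102 FPKM in untreated replicates 1, 2 and 3. The doxycycline mean was 1355 ± 881 FPKM and the untreated mean 1346 ± 1481 FPKM (SD, n = 3 each), so the means nearly coincided while 1 untreated tumour had almost no Tff2. In KrasT doxycycline replicate 2, Tff2 ranked 36th of all genes.

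In MycT tumours Tff2 was at 148 and 139 FPKM in doxycycline replicates 1 and 2, against 4.50 FPKM in untreated replicate 2 and 57.4 FPKM in the library without a number. Both doxycycline libraries were above both untreated ones, and they lay within 1.07-fold of each other. Groups without overlap were found for 64.7% of all genes tested in MycT.

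Tff3 was at 1.54, 21.0 and 8.43 FPKM in KrasT doxycycline replicates 1, 2 and 3, against 13.0, 17.4 and 2.16 FPKM in untreated replicates 1, 2 and 3. The KrasT groups covered much the same range. In MycT tumours Tff3 was at 62.2 and 1.77 FPKM in doxycycline replicates 1 and 2, against 11.8 FPKM in untreated replicate 2 and 5997 FPKM in the library without a number. That library held 508 times the Tff3 of the other untreated MycT tumour, and Tff3 ranked 56th of all genes there.

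Agr2, the disulfide isomerase, was at 33.5, 48.4 and 13.9 FPKM in KrasT doxycycline replicates 1, 2 and 3, against 0.805, 51.0 and 54.5 FPKM in untreated replicates 1, 2 and 3. In MycT tumours it was at 43.5 and 13.6 FPKM in doxycycline replicates 1 and 2, against 0.123 FPKM in untreated replicate 2 and 303 FPKM in the library without a number. Untreated KrasT replicate 1 and untreated MycT replicate 2 again had the lowest values of their models, the doxycycline values lay between the untreated ones in MycT, and the groups overlapped in both models.

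**Figure D1:**
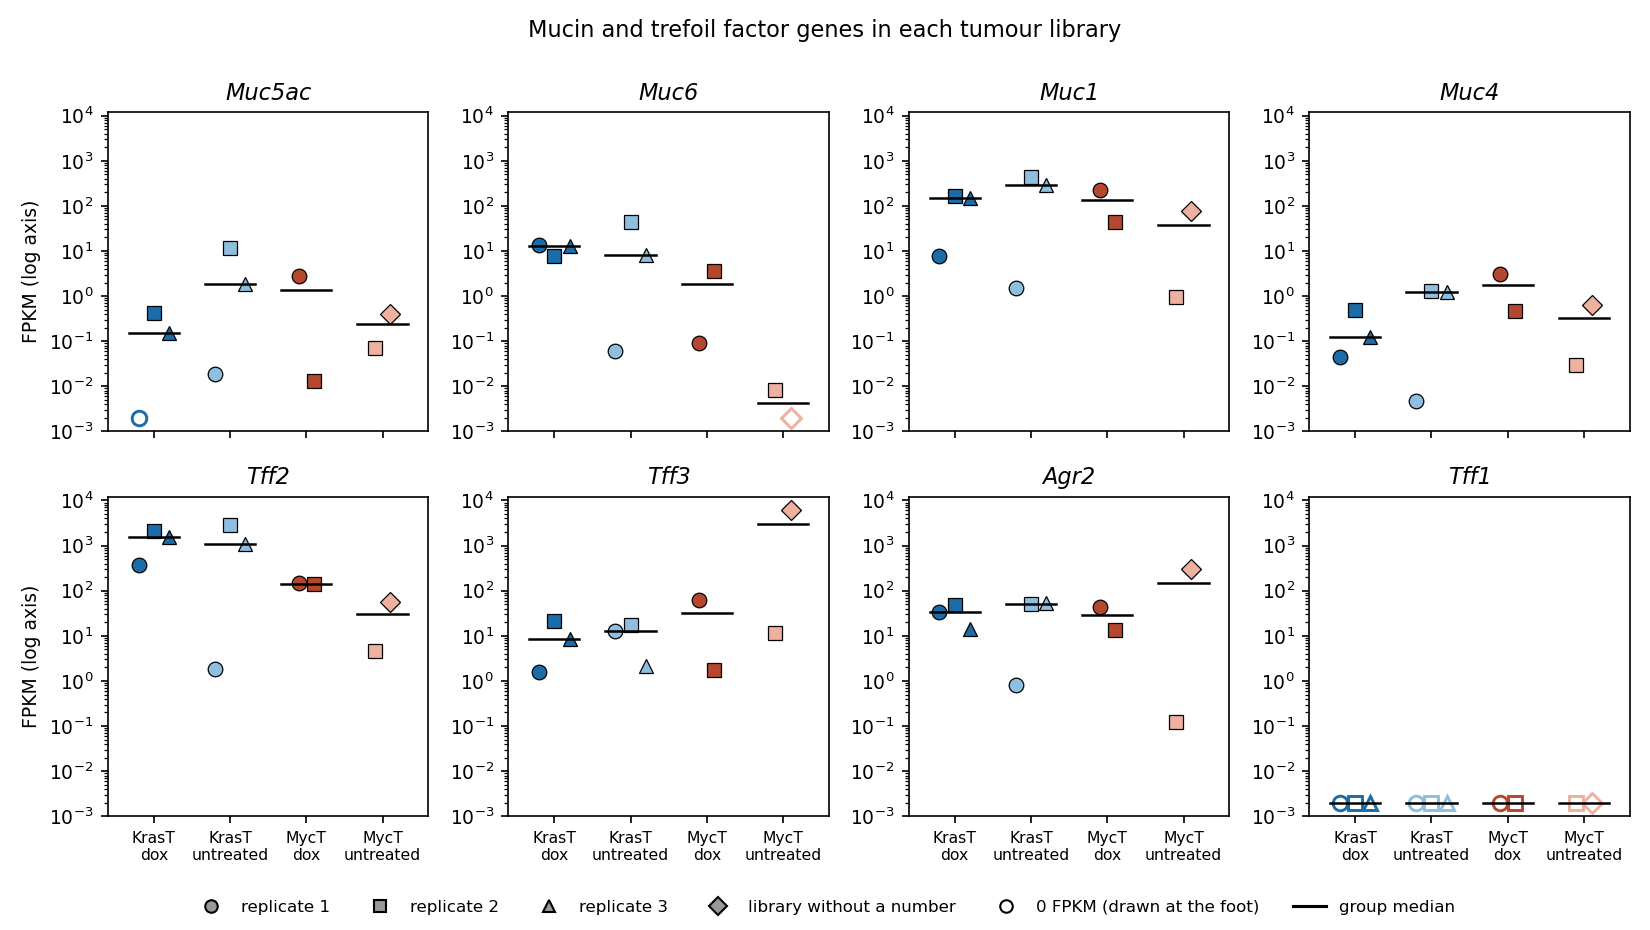
FPKM of each of the 8 genes on a log axis, 1 point per library, with a bar at the group median and open points for 0. Untreated KrasT replicate 1 and untreated MycT replicate 2 are the lowest of their models for Muc1, Muc4, Tff2 and Agr2. The untreated MycT library without a number has 5997 FPKM of Tff3 and 303 FPKM of Agr2.

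The order of the members was similar in 5 of the 6 KrasT tumours. FPKM is scaled to length, so levels can be set beside each other across genes. Tff2 was first in these 5 tumours, at 99.8 to 511 times the FPKM of Tff3, and Muc1 was second in 4 of them, the exception being doxycycline replicate 1, where Agr2 was second. Muc6 and Tff3 changed places between tumours, as did Muc4 and Muc5ac at the foot of the order, so neither pair of neighbours differed beyond its spread. In untreated KrasT replicate 1 Tff3 came first at 13.0 FPKM, followed by Tff2 and Muc1, and only 3 members reached 1 FPKM.

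The MycT order was less uniform. Muc1 was first in doxycycline replicate 1 and Tff2 in doxycycline replicate 2, against Tff3 in both untreated libraries. Tff3 was 0.419 and 0.0127 times Tff2 in doxycycline replicates 1 and 2, against 2.62 times Tff2 in untreated replicate 2 and 105 times Tff2 in the library without a number. The ratio did not overlap between the MycT groups. No share over other gene pairs was computed, and of single genes tested in MycT 64.7% did not overlap. In KrasT it was 0.00406, 0.010 and 0.00530 in doxycycline replicates 1, 2 and 3, against 7.05, 0.00594 and 0.00196 in untreated replicates 1, 2 and 3. Here the groups overlapped, and only untreated replicate 1 had more Tff3 than Tff2.

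**Figure D2:**
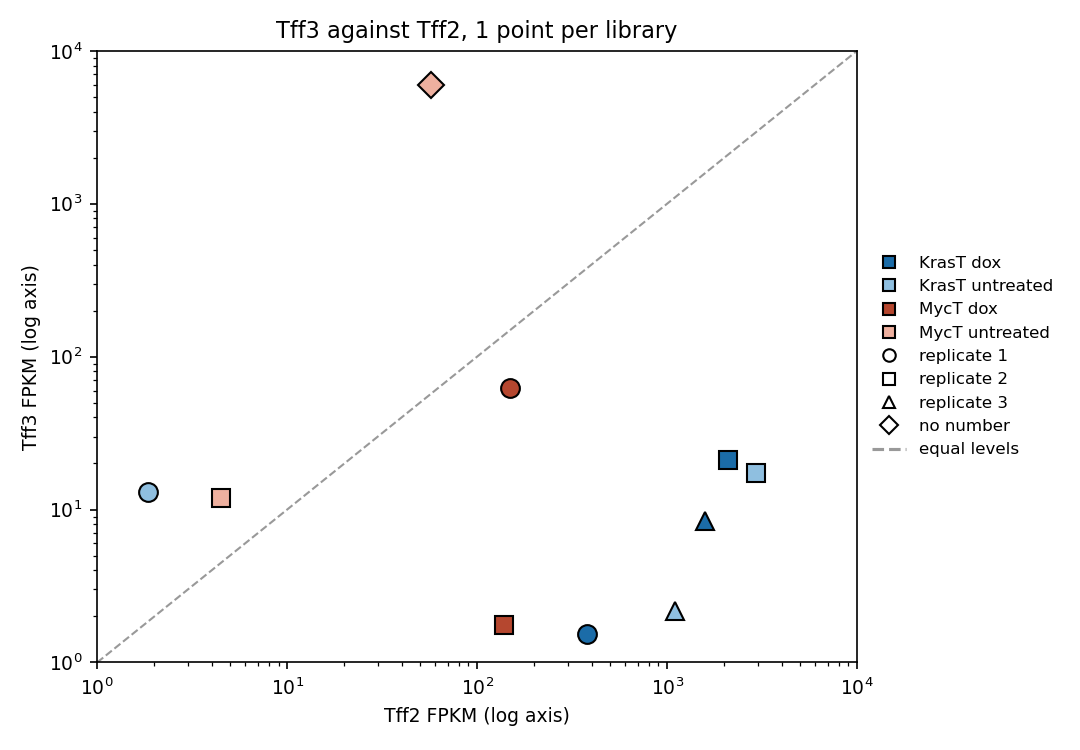
Tff3 against Tff2 in FPKM on log axes, 1 point per library, with the dashed line at equal levels. The 3 libraries above the line are untreated: KrasT replicate 1, MycT replicate 2 and the MycT library without a number, and all 5 doxycycline libraries lie below it.

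Across the 10 libraries, Tff2 varied most closely with Muc6 and Muc1. Pearson's r of log2(FPKM + 1) was 0.85 for Muc6 with Tff2, 0.84 for Muc1 with Tff2 and 0.76 for Muc1 with Agr2. Muc6 with Tff3 had the lowest r of any pair, -0.49. The points share model, treatment and scaling and include 2 tumours low in most members, so the coefficients are given as a description of these libraries only.

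Among 10296 genes with at least 5 FPKM in at least 2 libraries, the genes most like Muc1 over the 10 libraries were Prom1 (r = 0.99), which encodes a protein of apical membrane protrusions, Tmc4 (0.98) and Gabrp (0.98). The closest to Tff2 were Scmh1 (0.97), Rab27a (0.96), a small GTPase of secretory granule docking, and Plekha6 (0.95). The closest to Muc6 were Klc4, Ndrg1 and Calm3 (0.96, 0.96 and 0.95), and among the closest to Agr2 were Atp8b1 and Arap2 (0.93 and 0.90). Prom1 shared the low tumours of Muc1, with 1.24 FPKM in untreated KrasT replicate 1 and 2.38 FPKM in untreated MycT replicate 2.

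Tff3 had different company. Its closest genes were Lypd8 (r = 0.92), Retnlb (0.92) and Prss32 (0.91), of which Lypd8 and Retnlb encode secreted defence proteins of the colon epithelium. Retnlb was at 10.6 and 0.224 FPKM in MycT doxycycline replicates 1 and 2, against 0 FPKM in untreated replicate 2 and 120 FPKM in the library without a number. Lypd8 was at 14.1 and 0.520 FPKM in MycT doxycycline replicates 1 and 2, against 0.0807 FPKM in untreated replicate 2 and 177 FPKM in the library without a number. Within the 6 KrasT libraries alone r with Tff3 was 0.39 for Lypd8, 0.49 for Retnlb and 0.83 for Prss32, with all 3 genes under 1 FPKM in every KrasT library.

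Doxycycline changes were tested on log2(FPKM + 1) with limma within each table, over all genes with at least 1 FPKM in at least 3 KrasT or 2 MycT libraries, with a call where the Benjamini-Hochberg adjusted p was under 0.05. The added 1 makes the log2 change of a low gene smaller than its fold in FPKM. In KrasT, 5 members passed the filter (Muc1, Muc6, Tff2, Tff3 and Agr2) and 0 were called, beside 16.7% of all 12696 genes tested. At an unadjusted p under 0.05 the number was also 0 of 5, beside 4311 of all genes. Their groups did not overlap for 0 of the 5 members, beside 39.8% of all genes tested. The median log2 change was 0.68 over these 5 and -0.10 over all genes tested.

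The largest KrasT change was that of Tff2, with a log2 change of 2.37 ± 2.46 (SE, limma adjusted p = 0.538). Agr2 had 0.76 ± 1.32 (adjusted p = 0.721), Muc6 0.68 ± 1.22 (adjusted p = 0.731), Muc1 -0.16 ± 2.11 (adjusted p = 0.968) and Tff3 -0.21 ± 0.94 (adjusted p = 0.900). These standard errors were larger than those of at least 96.5% of genes tested, whose median was 0.338. Without untreated replicate 1 the log2 changes were -0.73 for Tff2, -0.87 for Agr2, -0.73 for Muc6 and -2.54 for Muc1, none called. The KrasT calls over all genes depended on single tumours too, with 4176 without untreated replicate 1 and 43 to 278 without any one of the other 5, against 2121 with all 6.

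In MycT, 4 members passed the filter (Muc1, Tff2, Tff3 and Agr2) and 0 were called, beside 0.039% of all 12834 genes tested. One of the 4, Tff2, was under an unadjusted p of 0.05, as were 4284 of all genes. Tff2 was also the only 1 of the 4 whose groups did not overlap, beside 64.7% of all genes tested. The median log2 change was 1.74 over the 4 and 0.04 over all genes tested.

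Tff2 had a MycT log2 change of 3.01 ± 1.15 (SE, limma adjusted p = 0.148), Muc1 3.02 ± 1.90 (adjusted p = 0.323), Agr2 0.47 ± 2.69 (adjusted p = 0.925) and Tff3 -4.39 ± 3.25 (adjusted p = 0.393). Their standard errors exceeded those of at least 97.0% of genes tested, whose median was 0.402. Without the untreated library without a number, 3 members were called: Muc1 (log2 change 5.67, adjusted p = 0.04999), Tff2 (4.72, adjusted p = 0.0381) and Agr2 (4.51, adjusted p = 0.0472), while Tff3 had 0.05. That fit called 1293 of all genes and compares both doxycycline tumours with untreated replicate 2 alone, which is assumed to vary like the others. Without untreated replicate 2 in its turn, 0 members were called, with log2 changes of 0.37 for Muc1, 1.31 for Tff2, -3.57 for Agr2 and -8.82 for Tff3.

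**Figure D3:**
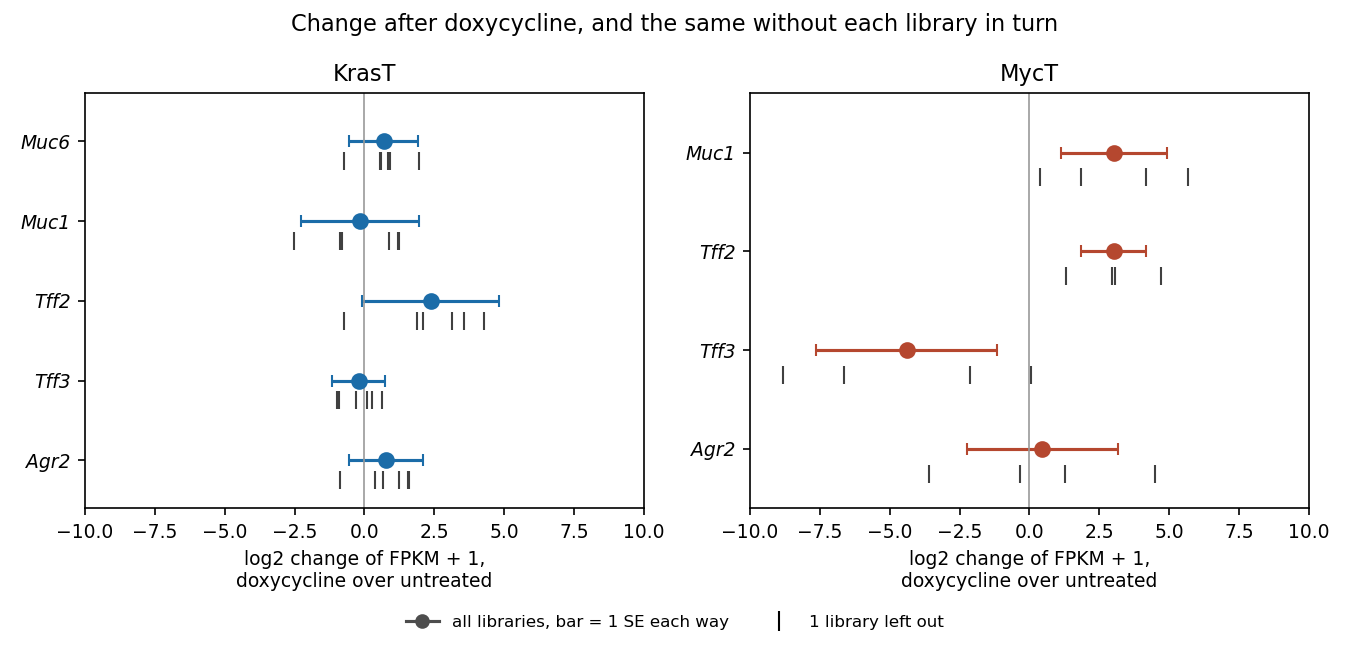
Log2 change of FPKM + 1 after doxycycline, with its standard error, for the members tested in KrasT (left) and MycT (right), and ticks for the same change without each library in turn. The ticks of each KrasT member fall on both sides of 0, and in MycT those of Tff3 and Agr2 do.

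A fit over both tables, which shares 1 estimate of spread, tested 7 members and called 0 in either model, beside 15.3% of all 14157 genes in KrasT and 17.6% in MycT. In that fit Muc5ac had a log2 change of -1.48 ± 0.82 (SE) in KrasT (limma adjusted p = 0.241) and 0.66 ± 1.01 in MycT (adjusted p = 0.678). Muc4 had -0.51 ± 0.46 in KrasT (adjusted p = 0.474) and 0.91 ± 0.56 in MycT (adjusted p = 0.288). Muc6 had 1.16 ± 1.41 in MycT (adjusted p = 0.593).

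The change in MycT minus that in KrasT was tested as an interaction for the same 7 members, and 0 were called, beside 0.763% of all genes. None of the 7 was under an unadjusted p of 0.05, beside 2750 of all 14157 genes. The smallest adjusted p was that of Muc4 (1.42 ± 0.73 SE, limma adjusted p = 0.325), with 0.91 in MycT and -0.51 in KrasT. Muc5ac had a difference of 2.14 ± 1.30 (adjusted p = 0.400), Muc1 3.18 ± 3.43 (adjusted p = 0.656) and Tff3 -4.18 ± 3.31 (adjusted p = 0.528). The remaining members, Muc6, Tff2 and Agr2, differed by 0.48, 0.64 and -0.30, with adjusted p of 0.914, 0.945 and 0.972. With standard errors of this size the data do not show that the models respond alike.

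Among epithelial genes of the KrasT tumours, 2 keratins were called lower. In KrasT, 15 of 16 ductal epithelium markers passed the filter. Of these, 0 were called higher and 2 lower, Krt18 (log2 change -3.60, limma adjusted p = 0.0318) and Krt8 (-3.09, adjusted p = 0.0444), beside 8.46% of all genes called higher and 8.25% called lower. Both keratin calls were lost without any one library other than untreated replicate 1, with no filter (adjusted p = 0.0541 and 0.0727) and after quantile normalization (adjusted p = 0.0751 and 0.116). The summed FPKM of the 16 was 382 to 2246 in doxycycline KrasT tumours and 2493 to 19836 in untreated ones, and 1226 to 2530 in doxycycline MycT tumours and 622 to 2223 in untreated ones. Each KrasT doxycycline tumour was thus below each untreated one in this sum, while the MycT groups overlapped. The closest KrasT values of the 2 groups were 2246 and 2493 FPKM. Summed over all genes, FPKM was also lower in doxycycline KrasT libraries, at 513949 to 569272 against 789672 to 1018968. The marker sums were not scaled to these totals, so their order between the KrasT groups may depend on them.

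Set against the mean log2(FPKM + 1) of Krt8, Krt18, Krt19, Epcam and Cdh1 in the same library, Tff2 stood at 3.28, 3.04 and 2.87 in KrasT doxycycline replicates 1, 2 and 3, against -5.05, 0.83 and 0.10 in untreated replicates 1, 2 and 3. Agr2 on this scale was at -0.18, -2.36 and -3.86 in KrasT doxycycline replicates 1, 2 and 3, against -5.70, -4.99 and -4.22 in untreated replicates 1, 2 and 3. Tff2, Agr2 and Muc6, 3 of the 5 members that passed the KrasT filter, were higher in every doxycycline KrasT tumour than in every untreated one on this scale, beside 7.18% of all genes tested. Muc1 and Tff3 overlapped. The order depends on the genes averaged, since untreated replicate 1 had Krt8 at 680 and Krt18 at 1497 FPKM but Epcam at 7.22 FPKM. Beside Epcam alone, Tff2 stayed apart but Muc6 and Agr2 overlapped. Muc6 was at 7.78 FPKM beside 215 of Epcam in doxycycline replicate 2, against 42.9 beside 375 in untreated replicate 2. Agr2 was at 13.9 FPKM beside 143 of Epcam in doxycycline replicate 3, against 51.0 beside 375 in untreated replicate 2. The mean of the 5 epithelial genes itself had a log2 change of -2.07 in KrasT and 0.61 in MycT, so the relative values carry its change as well as that of the members. In MycT, 1 of the 4 members that passed the filter, Tff2, was higher without overlap on this scale, beside 9.49% of all genes tested. No test was run on these relative values. What part the epithelial genes have in the member levels was not tested.

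Markers of other cells moved with doxycycline too. In KrasT, 8 of 10 fibroblast, 7 of 8 endothelial and 3 of 9 macrophage markers were called higher, beside 8.46% of all genes, and 0 lower. The summed FPKM of the 10 fibroblast markers was 4001 to 9278 in doxycycline KrasT tumours and 328 to 733 in untreated ones, and 1704 to 2460 in doxycycline MycT tumours and 37.3 to 459 in untreated ones. The 16 acinar markers summed to 151 to 20361 FPKM in doxycycline KrasT tumours and 28.0 to 400 in untreated ones, and 159 to 1933 in doxycycline MycT and 116 to 427 in untreated ones. These sums overlapped in both models, and the 20361 FPKM was that of doxycycline replicate 3 alone. Of the 11 acinar markers that passed the KrasT filter, 0 were called, beside 16.7% of all genes. In MycT 0 of the fibroblast, endothelial, macrophage and acinar markers were called, beside 0.039% of all genes. At an unadjusted p under 0.05 were 7 of 10 fibroblast, 7 of 8 endothelial and 4 of 9 macrophage markers, beside 33.4% of all genes. The 8 gastric chief and parietal cell markers summed to 32.8 to 59.5 FPKM in doxycycline KrasT tumours and 0.0871 to 5.88 in untreated ones, with Pgc carrying most of it, and to 10.7 to 13.3 in doxycycline MycT and 5.75 to 10.5 in untreated ones. The part of these cells in the member levels was not tested.

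Of the other mucins, 2 of 9 passed the filter in each model, Muc20 and the endothelial sialomucin Emcn. Of these 0 were called, beside 16.7% of all genes in KrasT and 0.039% in MycT. At an unadjusted p under 0.05 there was 1 in each model, beside 34.0% of all genes in KrasT and 33.4% in MycT. Muc19 and Mucl1 were listed at 0 in all 10 libraries. The intestinal mucins Muc2 and Muc13 were near the floor except in the untreated MycT library without a number. Muc13 was at 0.859 and 0.156 FPKM in MycT doxycycline replicates 1 and 2, against 0.146 FPKM in untreated replicate 2 and 39.8 FPKM in the library without a number. Muc2 was at 0.738 and 0.116 FPKM in MycT doxycycline replicates 1 and 2, against 0.0308 FPKM in untreated replicate 2 and 6.41 FPKM in the library without a number.

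Genes of goblet and intestinal cells did not all follow Muc2 and Muc13. The mucus component Fcgbp was at 25.9 FPKM, Agr3, a relative of Agr2, at 4.42 FPKM and the transcription factor Cdx1 at 3.76 FPKM in the library without a number, against 4.77, 0.261 and 0.103 FPKM or less in every other library. Other goblet genes were higher elsewhere: Spink4 was at 155 FPKM in this library and 263 FPKM in MycT doxycycline replicate 1, and Spdef was at 1.84 FPKM in it and up to 19.0 FPKM in KrasT tumours. The 19 genes of the mucous and goblet cell programme summed to 476 and 154 FPKM in MycT doxycycline replicates 1 and 2, against 96.3 FPKM in untreated replicate 2 and 400 FPKM in the library without a number. Of 10 intestinal epithelium markers, 5 reached 1 FPKM in the library without a number and 1 in untreated replicate 2, with 1 and 2 in doxycycline replicates 1 and 2. The summed FPKM of the 10 was 2.35 to 4.11 in doxycycline MycT tumours and 3.25 to 28.6 in untreated ones, and 5.18 to 24.7 in doxycycline KrasT and 12.1 to 81.5 in untreated ones. Of the 10, 0 were at 0 in every library, but Cdx1 was at 0 in 5 of 6 KrasT libraries. Some gastric-type genes were also highest in the library without a number. Anxa10 was at 368 FPKM there and at most 45.5 FPKM in the others. Cldn18 was at 131 FPKM there and at most 45.9 FPKM elsewhere. Ctse, however, was at 6.18 FPKM in it and up to 1185 FPKM in KrasT tumours. The 21 foveolar, pyloric and precursor lesion genes summed to 670 and 264 FPKM in MycT doxycycline replicates 1 and 2. They summed to 122 FPKM in untreated MycT replicate 2 and 1320 FPKM in the library without a number. The part of intestinal-type or gastric-type cells in its Tff3 and Agr2 was not tested.

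Of 21 genes of mucin-type O-glycosylation, which add sugars to mucins, 17 passed the KrasT filter. Of these 1 was called higher and 2 lower, 3 of 17 beside 16.7% of all genes, and the median log2 change was -1.05 beside -0.10 over all genes. The sialyltransferase St6galnac2 was at 3.28, 8.18 and 12.3 FPKM in doxycycline replicates 1, 2 and 3, against 0.312, 0.226 and 0.0366 FPKM in untreated replicates 1, 2 and 3. Of the KrasT libraries it reached 1 FPKM in the doxycycline ones alone, so it passed the filter only through the group where it was high, and its call is no support for a change. Galnt1, which starts the sugar chain, was at 43.3, 27.5 and 26.5 FPKM in doxycycline replicates 1, 2 and 3, against 126, 125 and 159 FPKM in untreated replicates 1, 2 and 3 (log2 change -2.07 ± 0.27 SE, limma adjusted p = 0.00978). The groups of Galnt1 lay apart, and its call was lost without doxycycline replicate 3, untreated replicate 2 or untreated replicate 3. C1galt1c1, the chaperone of the next enzyme in the chain, fell by 1.31 on the log2 scale (limma adjusted p = 0.0405), a call lost without any one library other than untreated replicate 1, in the joint fit (adjusted p = 0.0655), with no filter (0.0524) and after quantile normalization (0.0974). The change of Galnt1 in MycT minus that in KrasT was 2.63 (limma adjusted p = 0.0468), which passed in 2 of 10 fits with a library left out and missed with a pseudocount of 0.1 (adjusted p = 0.0638), no filter (0.0505) and quantile normalization (0.0624). It was at 32.7 and 31.0 FPKM in MycT doxycycline replicates 1 and 2, against 15.9 FPKM in untreated replicate 2 and 28.0 FPKM in the library without a number.

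Of the disulfide isomerase family of Agr2, 3 genes were called lower in KrasT, and these calls depended on the libraries and the scaling. Of 12 genes, 10 passed the KrasT filter, 0 were called higher and 3 lower, beside 8.25% of all genes called lower, and the median log2 change was -0.64. These were P4hb (log2 change -1.10, limma adjusted p = 0.0403), Pdia3 (-1.03, adjusted p = 0.0478) and Tmx1 (-0.90, adjusted p = 0.0363). All 3 calls were lost without any one library other than untreated replicate 1, and after quantile normalization, with log2 changes of -0.39, -0.39 and -0.49 (adjusted p = 0.418, 0.358 and 0.207). Those of P4hb and Pdia3 were also lost with no filter (adjusted p = 0.0567 and 0.0601), and that of Pdia3 in the joint fit (0.111) and with the filter raised to a mean of 5 FPKM (0.0542). The summed FPKM of the 12 was 1134 to 1191 in doxycycline KrasT tumours and 1701 to 2253 in untreated ones, and 955 to 1056 in doxycycline MycT tumours and 840 to 1809 in untreated ones. In KrasT the FPKM of all genes together differed in the same direction, at 513949 to 569272 and 789672 to 1018968. The family sums were not scaled to it, so they do not show a fall of the family beyond that of the totals.

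Of 21 foveolar, pyloric and precursor lesion genes, 14 passed the KrasT filter, 1 was called higher and 0 lower, beside 8.46% of all genes called higher, and the median log2 change was -0.56. The called gene was Pgc, the gastric proenzyme pepsinogen C, at 28.5, 30.6 and 52.2 FPKM in doxycycline replicates 1, 2 and 3, against 0.0871, 4.68 and 1.52 FPKM in untreated replicates 1, 2 and 3 (log2 change 3.88 ± 0.61 SE, limma adjusted p = 0.0139). That call was lost without untreated replicate 3 or any one doxycycline library. Gkn2, which binds Tff1 and is made by gastric surface cells, was at 0.524, 0.883 and 0.0737 FPKM in KrasT doxycycline replicates 1, 2 and 3, against 0, 419 and 246 FPKM in untreated replicates 1, 2 and 3. Gkn3, of the gastric glands, was at 272, 326 and 533 FPKM in KrasT doxycycline replicates 1, 2 and 3, against 0.254, 517 and 154 FPKM in untreated replicates 1, 2 and 3. Among KrasT tumours, Gkn2 was high in untreated replicates 2 and 3 alone. Muc5ac reached 1 FPKM only in the same KrasT tumours, at 11.5 and 1.83 FPKM, but was at 2.74 FPKM in MycT doxycycline replicate 1. Gkn3, like Tff2 and Muc6, was high in all KrasT tumours but untreated replicate 1.

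Of 19 genes of the mucous and goblet cell programme, 13 passed the KrasT filter, 1 was called higher, beside 8.46% of all genes, and 0 lower, with a median log2 change of 0.15. The called gene, Clca2, was at 1.79, 2.29 and 1.55 FPKM in doxycycline replicates 1, 2 and 3, against 0.623, 0.382 and 0.391 FPKM in untreated replicates 1, 2 and 3, and so passed the filter only through the doxycycline group. Its call is no support for a change. Spdef, a transcription factor of mucus cells, was at 1.81, 12.0 and 9.16 FPKM in KrasT doxycycline replicates 1, 2 and 3, against 0.0640, 19.0 and 11.8 FPKM in untreated replicates 1, 2 and 3. Of 12 partners and receptors of mucins and trefoil factors, 8 passed the KrasT filter and 0 were called, beside 16.7% of all genes, with 2 at an unadjusted p under 0.05, beside 34.0% of all genes, and a median log2 change of -0.60. In MycT 0 of 69 genes of the 6 lists were called, beside 0.039% of all genes, with 13 at an unadjusted p under 0.05, beside 33.4% of all genes. Lingo3, reported to take part in Tff2 signalling, was at 0.294 and 0.768 FPKM in MycT doxycycline replicates 1 and 2, against 6.81 FPKM in untreated replicate 2 and 6.41 FPKM in the library without a number. It was at or below 0.205 FPKM in all 6 KrasT libraries, and it passed the filter of the fit over both tables only through the untreated MycT group, so no test of its difference is given.

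**Figure D4:**
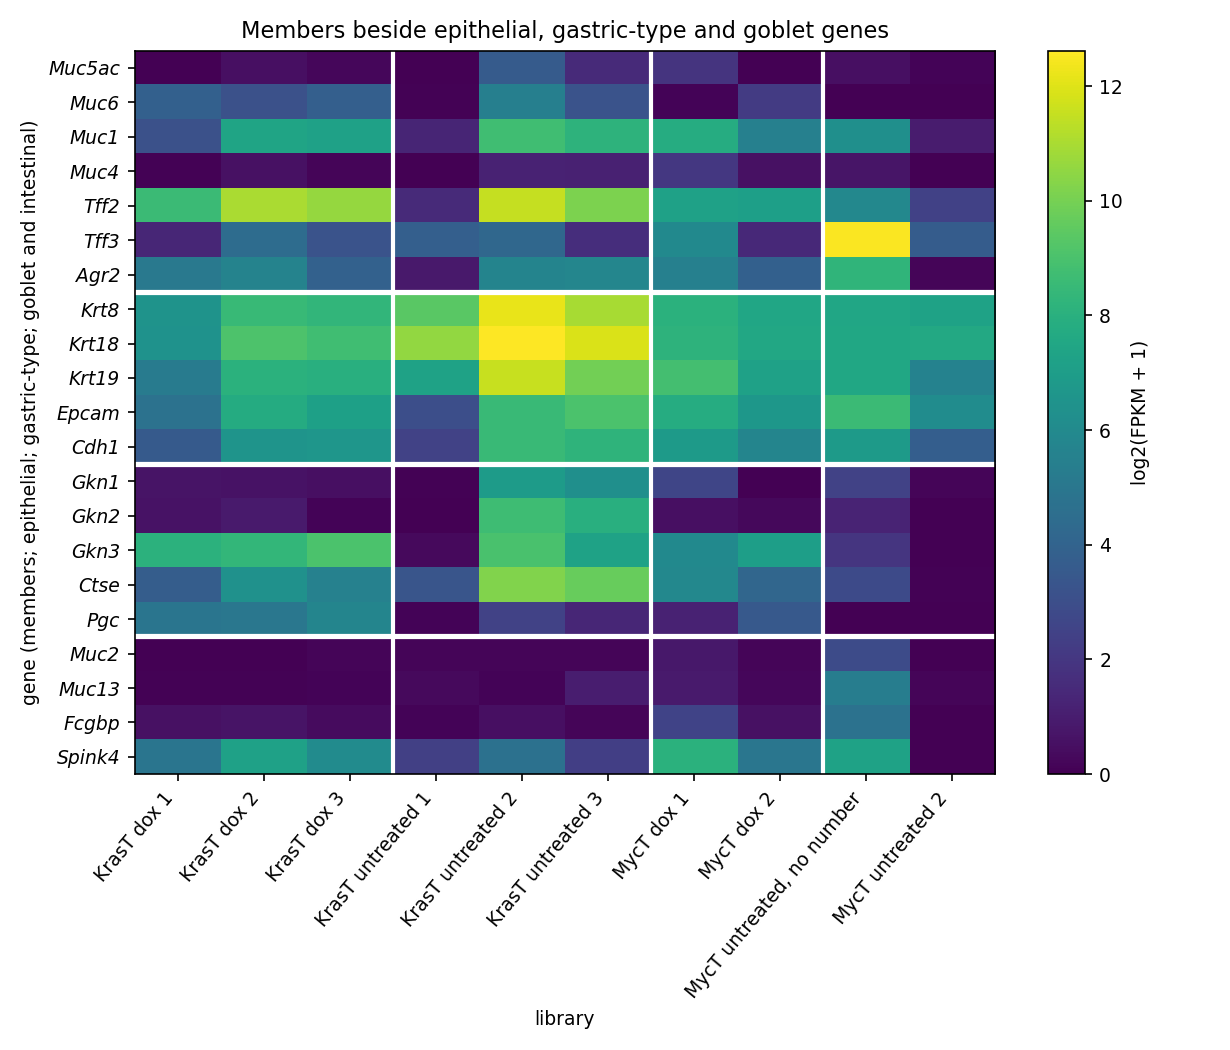
Log2(FPKM + 1) of 7 members, 5 epithelial genes, 5 gastric-type genes and 4 goblet or intestinal genes in each library, with white lines between groups. KrasT untreated replicate 1 and MycT untreated replicate 2 are dark for most members and gastric-type genes, and Muc2, Muc13 and Fcgbp stand out in the untreated MycT library without a number.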

How the data were processed

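The authors deposited FPKM values (fragments scaled to gene length and mapped fragments) in a separate gene table for each model, KrasT and MycT, with a column for each tumour. RNA of frozen tumours was made into libraries with the TruSeq RNA kit, per the labels. The tools cutadapt and TopHat and the build mm9 are named in the submitters' processing notes, with no role or order. The sources used here do not give the program, annotation or strand setting behind the FPKM.

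Columns were matched to samples by animal number. One untreated MycT number matches no label, so that column entered as an untreated MycT library with no number. Of 23951 rows per table, 27 with dates in place of symbols were not used. Relative depth came from the steps between low values. Genes with at least 1 FPKM in at least 3 KrasT libraries, 2 MycT libraries or, for the fit over both tables, 2 of 10 libraries were tested on log2(FPKM + 1) with limma 3.58.1 under R 4.3.3. Tests were two-sided with trended eBayes moderation and Benjamini-Hochberg adjustment over all genes kept. The scripts were tested on simulated data. Labels pair no samples. Figures were drawn with matplotlib 3.10.9.

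The members and lists were chosen with earlier results of these data known. Beside the members, the text names called genes of 6 fixed lists and of the marker lists, and up to 3 genes most like a member by Pearson's r, of which 1 is not reported here. Goblet, gastric and colon genes given with values but not called were chosen after their values were seen. Alternatives were a pseudocount of 0.1, no filter, a mean of at least 5 FPKM, median-ratio scaling, quantile normalization, a robust spread, a joint fit, members relative to 5 epithelial genes and leaving out each library. For called list genes these refits were added after seeing the data.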

Additional observations from a re-analysis of the deposited data

How the results depend on the processing

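Of the members, 0 were called in KrasT and in the difference under every alternative run. In MycT 0 to 3 were called when each library was left out, 3 only without the untreated library without a number. Signs turned in these settings. In KrasT, Muc1 had a log2 change of 0.0044 with a pseudocount of 0.1, 0.17 after quantile normalization and 1.91 relative to the epithelial genes, and Tff3 had 1.86 relative to the epithelial genes. Agr2 had -0.15 relative to the epithelial genes in MycT and 0.51 in the difference with a pseudocount of 0.1. Leaving out each library gave, in KrasT, -2.54 to 1.23 for Muc1, -0.73 to 1.95 for Muc6, -0.73 to 4.28 for Tff2, -0.99 to 0.63 for Tff3 and -0.87 to 1.60 for Agr2. In MycT it gave 0.37 to 5.67 for Muc1, 1.31 to 4.72 for Tff2, -8.82 to 0.046 for Tff3 and -3.57 to 4.51 for Agr2. In the difference it gave -0.79 to 1.89 for Muc6, -1.26 to 3.74 for Tff2, -8.62 to 0.25 for Tff3 and -4.34 to 3.74 for Agr2.

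Over all genes, KrasT calls were 1340 with a mean of at least 5 FPKM, 1172 after quantile normalization and 43 to 4176 without each library. MycT calls were 2498 in the joint fit, 0 with no filter, 10 with a mean of at least 5 FPKM and 0 to 1293 without each library. Calls of the difference were 24 with a pseudocount of 0.1, 69 with a mean of at least 5 FPKM and 4 to 1656 without each library. With no filter in MycT more genes were tested. The cause was not tested for the others. No paired analysis was possible because the labels pair no samples. The depth in reads is unknown, so values near 0 FPKM carry no counting interval.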

Other observations

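The stem and foregut transcription factor Sox2, chosen here after its values were seen, split the tumours otherwise than the members did. It was at 2.34, 0 and 0.0195 FPKM in KrasT doxycycline replicates 1, 2 and 3, against 26.4, 0.0306 and 0.0596 FPKM in untreated replicates 1, 2 and 3. In MycT tumours it was at 24.2 and 0 FPKM in doxycycline replicates 1 and 2, against 24.4 FPKM in untreated replicate 2 and 17.0 FPKM in the library without a number. The lectin Zg16, a product of acinar and goblet cells, was at 850 FPKM in KrasT doxycycline replicate 3, the library with 20361 FPKM of summed acinar markers, and at most 26.9 FPKM in the other libraries.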
